A study of Oryza sativa Indica Group with 8 samples.

Results

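The cultivar by drought interaction in rice roots is the difference between the drought responses of 2 cultivars, Nootripathu and IR20. For each probe set it was taken as stress minus control in Nootripathu, minus stress minus control in IR20, on the log2 scale, so that a positive value means a drought response that was more positive in Nootripathu. A gene called higher or lower below had a higher or lower drought response in Nootripathu, which is not its signal level. Signal levels are named with their condition. All 8 of the 8 arrays of the study entered the contrast. It was computed for 57258 of the 57381 probe sets on the array, leaving out the 123 control probe sets. Because the same number is also the gap between the cultivars in stressed roots minus their gap in control roots, each difference was divided between its control and its stressed level. It was assigned to the control level where the gap in control roots made up at least 66.7% of it, to the stressed level where that share was at most 33.3%, and otherwise to both levels. A constant offset between the cultivars in how a probe set reads them cancels in the interaction but enters both gaps. It could therefore change the origin given for a gene, and such offsets were not tested.

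IR20 was described by the submitters as semi-dwarf, shallow-rooted and susceptible to drought, and Nootripathu as a deep-rooted, drought-tolerant landrace. Single plants were grown in pipes 1 m long, and drought was imposed by stopping irrigation 40 days after sowing. Watered and stressed roots of each cultivar made 4 groups with 2 arrays each, 1 for each biological replicate. The labels do not say whether plants were pooled, and p-values measure the spread between these arrays. Control roots were washed in de-ionised water while stressed roots were tapped free of soil, so handling cannot be told apart from drought within a cultivar. Both cultivars were handled alike, and the interaction compares one such difference with the other. The 4 groups stand for 1 cultivar of each kind, so the comparison is between these cultivars and not between drought-tolerant and susceptible rice in general.

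Roots that dry out slow their division and expansion, save water through changes in membrane channels, and accumulate hydrophilic LEA proteins and dehydrins that protect other proteins as cells lose water. Much of this runs through abscisic acid, a hormone that builds up under water shortage and acts by releasing SnRK2 kinases from their protein phosphatases 2C. A cultivar can differ in such a response because it starts from another level when watered, because it ends at another level when dry, or both. An interaction alone does not show which, and the signal levels or the origin are therefore given with most values.

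One array stood apart before any gene was compared. The 3′ minus 5′ signal of the spike-in transcripts was 5.32 on stressed IR20 replicate 2 and 2.08 to 2.58 on the other 7 arrays, over 12 probe sets at each end. Leaving that array out gave 14153 passing probe sets in place of the 11204 given next. Of these 11204, 10343 passed in the same direction without it, and 9524 of those 10343 kept the same origin. Of the 157 passing genes singled out by the naming rule, 156 passed in the same direction without it, GER3 being the exception, 148 of those kept their origin, and no value moved by more than 0.63. MCM4, DREB2A, HSFB2C, RPL3 and CASPL5B3 were among the 8 whose origin changed. The median signal of an array was between 5.29 and 5.35. The lowest signals were 2.53 to 2.64 and the highest 14.9 to 15.3, so a mean under 4 or over 14 is close to the limits of the scale. A difference with one end there is a bound, and one between 2 means there has no known size. Signal for 18S ribosomal RNA control probe sets averaged 8.34 in IR20 controls, 9.11 in IR20 stress, 12.2 in Nootripathu controls and 11.5 in Nootripathu stress. Its part in the results was not tested. In whole roots fewer cells of one kind and less RNA in each cell cannot be told apart.

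The cultivars answered drought differently at 11204 of 57258 probe sets (19.6%) at an adjusted p under 0.05. The response was higher in Nootripathu at 6059 (10.6%) and lower at 5145 (8.99%). A difference of at least 1 on the log2 scale, which is 2-fold, was reached by 5142 (8.98%). Of these 5142, 3441 (6.01%) were higher and 1701 (2.97%) lower in Nootripathu, but scaling each array to the 3′ spike-ins lowered every interaction by 0.29 and gave 1641 higher and 1587 lower. The medians of 11 of the 30 gene lists changed sign with that shift, each from a positive value. The median interaction over all tested probe sets was -0.08. Among the 5142, 588 had a group mean under 4 and 25 had one over 14. Over the 17905 genes that could be assigned a probe set of their own, 5896 (32.9%) passed, 3790 (21.2%) higher and 2106 (11.8%) lower in Nootripathu, with a median of 0.08. The counts of each gene list below are to be read against these shares.

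The 2 directions differed in where they came from. Of the 6059 probe sets with a higher response in Nootripathu, 2534 (41.8%) came from the control level, 1909 (31.5%) from the stressed level and 1616 (26.7%) from both. Of the 5145 with a lower response, 1306 (25.4%) came from the control level, 2124 (41.3%) from the stressed level and 1715 (33.3%) from both. These shares describe fitted means and were given no test of their own. When the origin was instead taken from the tests of the gaps themselves, 3635 of the 11204 had a gap that passed in control roots alone and 3986 in stressed roots alone. Gaps of opposite sign passed in both conditions at 1697, gaps of the same sign at 933, and neither gap passed at 953. For comparison, 11048 probe sets (19.3%) passed between cultivars in control roots and 12601 (22%) in stressed roots.

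**Figure D1:**
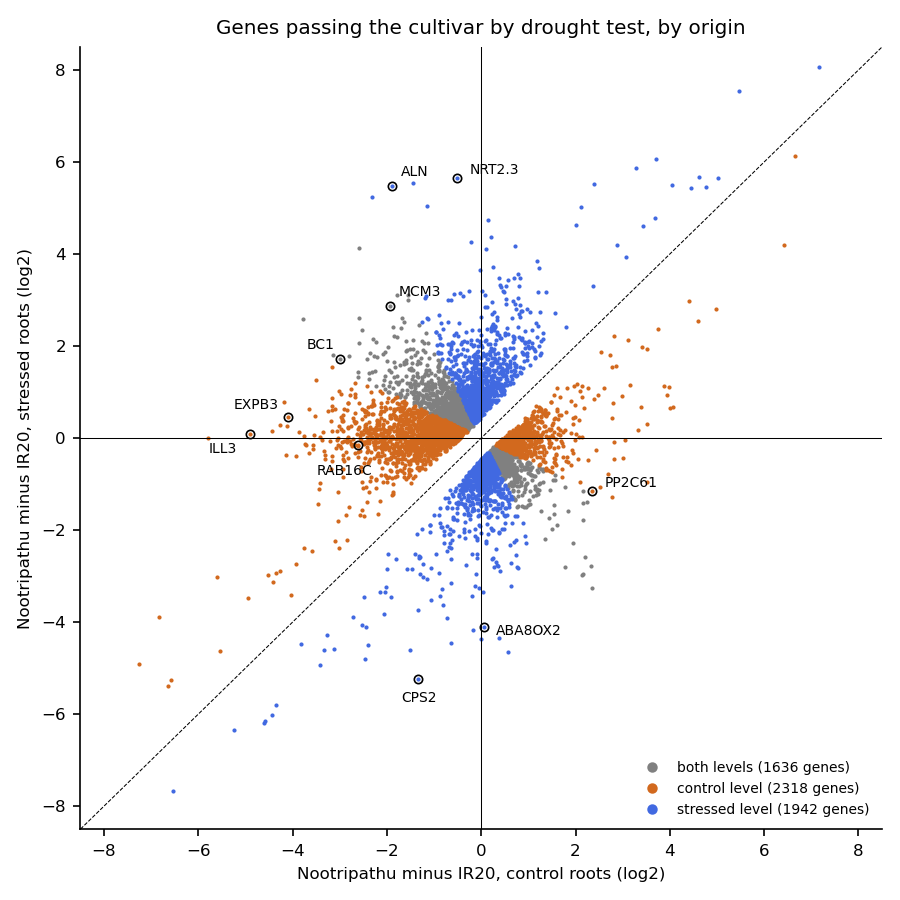
Each point is 1 of the 5896 genes passing the interaction, placed by the gap between cultivars in control roots (x axis, log2) and in stressed roots (y axis, log2), with colour giving the origin. The distance above or below the dashed line of equal gaps is the interaction, and points near the horizontal axis are genes whose gap was present in control roots and small in stressed roots.

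The same group means also gave the drought response of each cultivar, which is another description and not a separate test. In IR20 the response passed at 21807 probe sets (38.1%) and in Nootripathu at 18267 (31.9%). Of the 6059 with a higher response in Nootripathu, 2094 (34.6%) fell in IR20 with no passing response in Nootripathu, 1310 (21.6%) rose in Nootripathu with no passing response in IR20, and 1270 (21%) fell in both. A further 543 rose in both, and 775 (12.8%) fell in IR20 and rose in Nootripathu. Of the 5145 with a lower response, 1930 (37.5%) rose in IR20 with no passing response in Nootripathu and 1124 (21.8%) fell in Nootripathu alone by that test. Another 824 rose in both, 658 fell in both, and 442 (8.59%) rose in IR20 and fell in Nootripathu. Where a response passed in only one cultivar, it is the interaction that tests the difference.

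The largest interaction of a gene with a known role was that of ALN, which encodes allantoinase, an enzyme of purine breakdown that releases stored nitrogen from allantoin. Its signals were 10.60 and 10.53 in control IR20, 4.77 and 4.48 in stressed IR20, 8.65 and 8.71 in control Nootripathu and 10.12 and 10.08 in stressed Nootripathu. Control roots of IR20 were above those of Nootripathu, stressed roots were far below, and no 2 groups overlapped. ALN fell by 5.94 in IR20 and rose by 1.42 in Nootripathu, an interaction of 7.36 ± 0.17 (SE, adjusted p = 3.67e-06), assigned to the stressed level. It was 7.21 without stressed IR20 replicate 2.

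The other 3 of the 4 largest positive interactions belonged to genes that carried only a locus number, and no role is given here. LOC4337229 read 10.82 and 10.63 in IR20 controls, 6.17 and 6.44 in IR20 under stress, 8.42 and 8.40 in Nootripathu controls and 11.50 and 11.58 in Nootripathu under stress. It fell in IR20 by 4.42 and rose in Nootripathu by 3.13, with an interaction of 7.55 ± 0.18 (SE, adjusted p = 3.67e-06) from the stressed level. LOC4339187 had an interaction of 6.99 ± 0.20 from the stressed level and LOC4332321 one of 6.73 ± 0.26 from both levels, each with a fall in IR20 and a rise in Nootripathu. At the other end LOC4331559 read 7.30 and 7.26 on the IR20 control arrays, 10.01 and 10.13 on the IR20 stress arrays, 9.63 and 9.65 on the Nootripathu control arrays and 6.74 and 6.90 on the Nootripathu stress arrays. That gene rose in IR20 by 2.79 and fell in Nootripathu by 2.82, an interaction of -5.61 ± 0.15 (SE, adjusted p = 4.9e-06) from both levels. LOC4344636 (-5.21), LOC4332162 (-5.11) and LOC4346629 (-5.10) also rose in IR20 and fell in Nootripathu.

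Genes that bring nitrogen into the root and assimilate it mostly had a higher drought response in Nootripathu. Of 16 measured genes for taking up and assimilating nitrate and ammonium, 10 (62.5%) were higher and 1 (6.25%) lower in Nootripathu. Over all genes 21.2% were higher and 11.8% lower. The median interaction of the 16 was 1.31, against 0.08 over all genes. The stressed level was the origin of 6 of the 10, the control level of 2 and both levels of 2. NRT2.3, a high-affinity nitrate transporter, gave 11.73 and 11.45 in control IR20, 5.04 and 5.38 in stressed IR20, 11.03 and 11.14 in control Nootripathu and 10.78 and 10.93 in stressed Nootripathu. Only the stressed IR20 arrays were low. NRT2.3 fell by 6.38 in IR20, the Nootripathu response was -0.23 and did not pass, and the interaction was 6.15 ± 0.21 (SE, adjusted p = 7.41e-06). Its probe set may match several transcripts.

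NAR2.2 encodes a partner protein that high-affinity nitrate transporters need at the membrane. Its signals were 5.16 and 5.28 in IR20 controls, 4.79 and 5.33 in IR20 under stress, 5.20 and 5.43 in Nootripathu controls and 9.11 and 9.24 in Nootripathu under stress. The first 3 of these groups lay together and stressed Nootripathu lay above them without overlap. NAR2.2 rose by 3.86 in Nootripathu while the IR20 response of -0.16 did not pass, so its interaction of 4.02 ± 0.25 (SE, adjusted p = 5.35e-05) came from the stressed level by a rise rather than by a smaller fall. NRT2.2, another nitrate transporter, had an interaction of 3.48 from the stressed level, and nitrate reductase NR1 one of 2.76 from both levels.

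AMT1-2, a high-affinity ammonium transporter, read 10.45 and 10.49 on the IR20 control arrays, 3.53 and 3.52 on the IR20 stress arrays, 9.26 and 9.36 on the Nootripathu control arrays and 6.60 and 6.60 on the Nootripathu stress arrays. It fell in both cultivars, and in IR20 it ended near the lower limit of the scale, which makes the interaction of 4.24 ± 0.13 (SE, adjusted p = 5.95e-06) a bound. AMT1-1 (1.61) was higher in Nootripathu as well, from the stressed level. AMT2-3, a transporter of another subfamily, went the other way with an interaction of -2.46 ± 0.21 from both levels, rising in IR20 by 0.76 and falling in Nootripathu by 1.71. Cytosolic glutamine synthetases, which build ammonium into glutamine, were higher for GLN1-2 (3.05, stressed level) and GLN1-1 (1.93, both levels), while GLN1-3 (0.22) did not pass. GDH2, a glutamate dehydrogenase that was not in the list of 16, was lower in Nootripathu by -2.32 ± 0.15 from the control level.

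**Figure D2:**
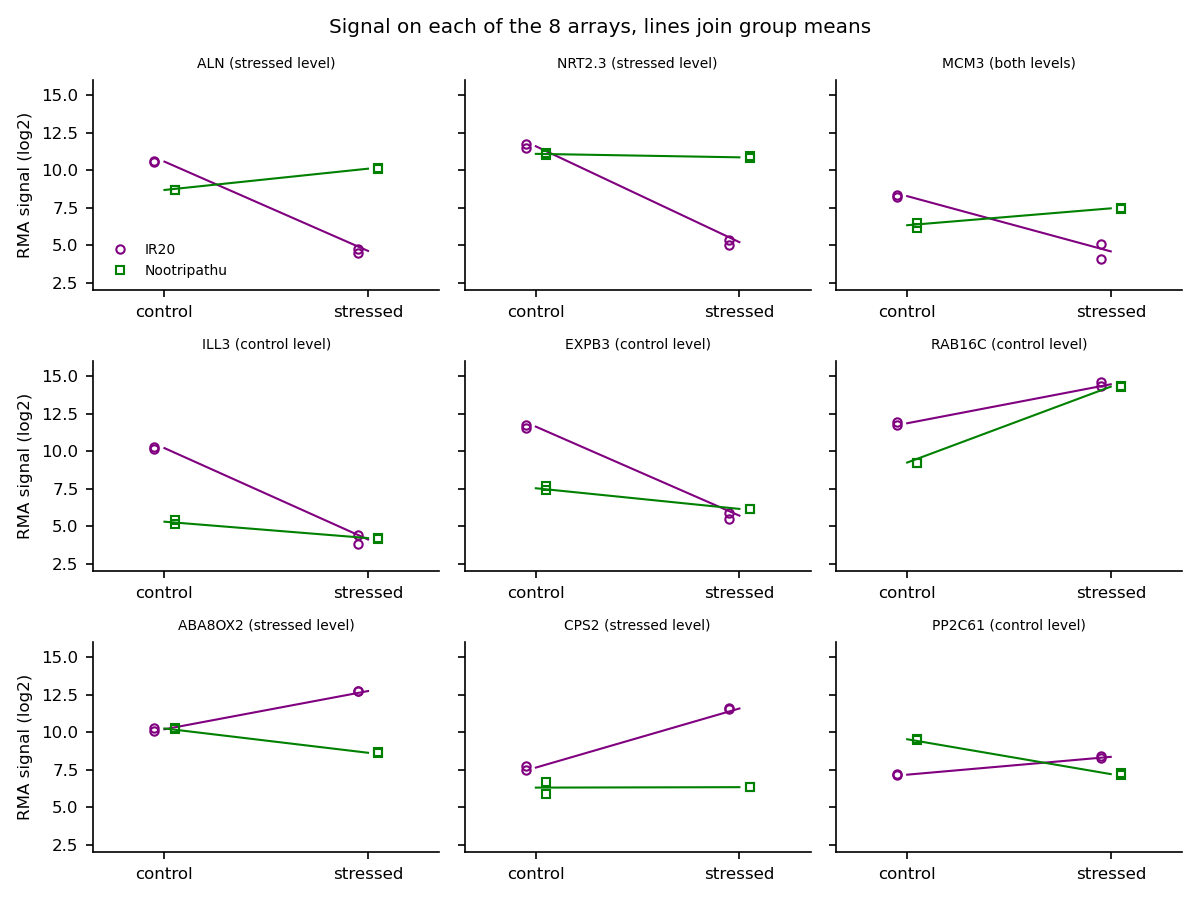
Signal (log2) on each of the 8 arrays for 9 genes, with control and stressed roots along the x axis, circles for IR20, squares for Nootripathu and lines joining the means of 2 arrays. NRT2.3 and ABA8OX2 parted mainly in stressed roots, and CPS2, whose control arrays were already apart, parted further there. ILL3, EXPB3 and RAB16C were apart in control roots and met in stressed roots. RAB16C met over 14, where a gap may be hidden. The lines of ALN, MCM3 and PP2C61 crossed.

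Genes of DNA replication and cell division differed between cultivars at both ends of the comparison. Of 38 measured markers of dividing cells, 26 (68.4%) were higher in Nootripathu and 1 (2.63%) lower, against 21.2% and 11.8% of all genes. The median interaction of the 38 was 1.57. The median response was -1.16 in IR20 and 0.27 in Nootripathu. In IR20 27 of the 38 fell and 6 rose, where 32.3% of all genes fell and 28.9% rose. In Nootripathu 9 fell and 16 rose, where 23.2% of all genes fell and 31.1% rose. The mean signal over the 38 genes was 7.87 and 7.94 in IR20 controls, 6.23 and 6.59 in IR20 stress, 6.95 in both Nootripathu controls, and 7.15 and 7.26 in Nootripathu stress. IR20 was thus above Nootripathu in control roots and below it in stressed roots, without overlap. Without stressed IR20 replicate 2, 28 of the 38 were higher, with a median of 1.80.

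MCM2 to MCM7 encode the subunits of the helicase that opens DNA ahead of the replication fork. MCM3 read 8.36 and 8.19 in control IR20, 4.09 and 5.10 in stressed IR20, 6.16 and 6.51 in control Nootripathu and 7.41 and 7.51 in stressed Nootripathu. Stressed IR20 was lowest and control IR20 highest, with Nootripathu between them and higher under stress. MCM3 fell by 3.68 in IR20 and rose by 1.12 in Nootripathu, an interaction of 4.80 ± 0.41 (SE, adjusted p = 0.000194) from both levels. The interactions of MCM4 (4.66), MCM2 (4.27), MCM7 (3.38) and MCM6 (3.06) also came from both levels, and that of MCM5 (4.22) from the stressed level. RPA2A, a subunit of the protein that covers single-stranded DNA, had signals of 8.62 and 8.60 in IR20 controls, 4.84 and 4.95 in IR20 under stress, 5.93 and 6.21 in Nootripathu controls and 7.16 and 7.36 in Nootripathu under stress. It showed the same crossing, with a fall of 3.71 in IR20, a rise of 1.19 in Nootripathu and an interaction of 4.90 ± 0.18 (SE, adjusted p = 8.25e-06) from both levels.

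All 4 measured B-type cyclin genes had a higher drought response in Nootripathu from the control level, where their signal was lower than in IR20. CYCB2-2, a cyclin that drives entry into mitosis, read 9.08 and 9.09 on the IR20 control arrays, 3.35 and 4.22 on the IR20 stress arrays, 6.02 and 5.85 on the Nootripathu control arrays and 4.26 and 4.55 on the Nootripathu stress arrays. The control roots of IR20 stood above all other groups, and both cultivars fell under stress, IR20 by 5.30 and Nootripathu by 1.52. Its interaction was 3.78 ± 0.36 (SE, adjusted p = 0.000319), and the IR20 stress mean lay under 4. CYCB2-1 (3.06), CYCB1-1 (2.93) and the mitotic kinase CDKB2-1 (3.34) were likewise higher in Nootripathu from the control level. ORC2, a subunit of the complex that marks replication origins, was the 1 member that was lower, by -0.54 ± 0.14, a call lost in 8 of 17 alternative settings. TUB8, a beta-tubulin that was in no list, fell in both cultivars and had an interaction of 4.07 ± 0.18 from both levels.

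Ribosomal protein genes moved by less and in one direction. Of 25 measured, 15 (60%) were higher in Nootripathu and 0 lower, against 21.2% and 11.8% of all genes. The median interaction of the 25 was 0.56. RPS26 was the largest from the control level, 1.06 ± 0.14, with a fall of 1.11 in IR20. With the spike-in scaling, under which all genes shifted down, 0 of the 25 passed and their median was 0.27, whereas 19 of the 38 markers of dividing cells still passed and were higher.

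Cellulose synthases and their relatives held 22 of 33 members (66.7%) higher in Nootripathu and 0 lower, against 21.2% and 11.8% of all genes. The median of the list was 1.17. The origin of the 22 was the control level for 12, the stressed level for 5 and both levels for 5. BC1, a COBRA-like protein needed for cellulose assembly in secondary walls, read 9.69 and 9.67 in control IR20, 6.88 and 6.89 in stressed IR20, 6.63 and 6.72 in control Nootripathu and 8.58 and 8.63 in stressed Nootripathu. Each of its 4 groups stood clear of the others. BC1 fell by 2.80 in IR20 and rose by 1.92 in Nootripathu, an interaction of 4.72 ± 0.13 (SE, adjusted p = 4.9e-06) from both levels. The 3 cellulose synthases known in rice for secondary walls were all higher in Nootripathu, CESA4 by 2.65 from both levels, CESA7 by 2.41 and CESA9 by 1.74 from the control level. CSLF6, which makes the mixed-linkage glucan of grass walls, was higher by 2.49 from both levels. CSLC3 (3.16) and CSLA1 (3.03), of families that make xyloglucan and mannan backbones, fell in both cultivars and differed through the control level. The stressed IR20 mean of CSLC3 was 3.90, under 4, so its difference is a bound and its origin is not settled.

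Expansins loosen the wall as cells grow. Of 30 expansins and xyloglucan endotransglucosylases, 13 (43.3%) were higher in Nootripathu and 2 (6.67%) lower, against 21.2% and 11.8% of all genes. The median of the list was 0.30, and 9 of the 13 came from the control level, 4 from both levels and 0 from the stressed level. EXPB3 read 11.54 and 11.73 in IR20 controls, 5.51 and 5.91 in IR20 under stress, 7.65 and 7.41 in Nootripathu controls and 6.14 and 6.18 in Nootripathu under stress. IR20 controls were above the rest, and under stress the cultivars differed by 0.45, a gap that did not pass. EXPB3 fell by 5.92 in IR20 and by 1.37 in Nootripathu, an interaction of 4.55 ± 0.22 (SE, adjusted p = 2.09e-05). EXPB4 had 3.63 ± 0.23 and EXPB11 3.44 ± 0.15, both from the control level, and the probe sets of EXPB3 and EXPB4 may match several transcripts. The lower members were EXLA1 at -1.26 ± 0.14 from both levels and EXPB10, assigned to the stressed level, whose 4 group means were under 4 and whose difference therefore has no known size.

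Among 25 lignin synthesis genes and laccases, 8 (32%) were higher and 6 (24%) lower in Nootripathu, against 21.2% and 11.8% of all genes. Their median of 0.08 equalled that of all genes. LAC10, a laccase, an enzyme class that joins lignin units, read 9.29 and 9.52 on the IR20 control arrays, 9.77 and 9.93 on the IR20 stress arrays, 6.73 and 6.72 on the Nootripathu control arrays and 10.79 and 10.71 on the Nootripathu stress arrays. Control Nootripathu was low and stressed Nootripathu high, with both IR20 groups between. LAC10 rose by 0.45 in IR20 and by 4.03 in Nootripathu, an interaction of 3.58 ± 0.16 (SE, adjusted p = 1.77e-05) from the control level. LAC19 (-2.57 ± 0.19) and LAC24 (-2.51 ± 0.22) were lower in Nootripathu from the stressed level. PRX74, a class III peroxidase, had means under 4 in both stressed groups, so its fitted interaction of 4.56 ± 0.23 has no known size and its origin cannot be given.

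By their fitted values, most dehydrins and LEA proteins rose more in Nootripathu, from a lower control level. Of 8 measured, 6 (75%) were higher in Nootripathu and 0 lower, against 21.2% and 11.8% of all genes. The median interaction was 1.91, and all 6 came from the control level. The median response was 1.94 in IR20 and 3.97 in Nootripathu, the median gap was -2.01 in control roots and -0.06 in stressed roots. RAB16C, a dehydrin induced by abscisic acid, read 11.95 and 11.77 in control IR20, 14.57 and 14.33 in stressed IR20, 9.24 and 9.25 in control Nootripathu and 14.25 and 14.33 in stressed Nootripathu. IR20 controls lay above Nootripathu controls without overlap, and the stressed arrays of both lay together. RAB16C rose by 2.59 in IR20 and by 5.05 in Nootripathu, an interaction of 2.46 ± 0.17 (SE, adjusted p = 7.72e-05).

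RAB16D (2.09 ± 0.15), RAB16A (1.86 ± 0.15) and LEA3 (2.11 ± 0.16), a late embryogenesis abundant protein of the osmotic response, followed the same course. RAB16A read 13.92 and 13.86 in IR20 controls, 15.28 and 15.25 in IR20 under stress, 12.14 and 11.91 in Nootripathu controls and 15.26 and 15.26 in Nootripathu under stress. The stressed means of RAB16A, RAB16C, RAB16D and LEA3 lay over 14 in both cultivars, so a gap between stressed roots may be hidden at the top of the scale. Neither the size of these interactions nor their origin is settled. RAB25 (-0.01), which was far from the top and rose in both cultivars, and LIP9 (-0.20) did not pass. SalT, a lectin induced by salt and drought, had a lower signal in Nootripathu in both conditions and its interaction of 0.33 did not pass (adjusted p = 0.129).

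Of 27 small heat shock proteins and HSP chaperones, 4 (14.8%) were higher and 3 (11.1%) lower in Nootripathu, with a median of -0.10. The shares over all genes were 21.2% and 11.8%. HSP16.9B, a small cytosolic chaperone that keeps unfolded proteins soluble, read 3.90 and 4.24 on the IR20 control arrays, 7.83 and 8.18 on the IR20 stress arrays, 4.47 and 4.21 on the Nootripathu control arrays and 10.30 and 10.49 on the Nootripathu stress arrays. It rose in both cultivars, by 3.93 in IR20 and 6.06 in Nootripathu, and the interaction of 2.13 ± 0.25 (SE, adjusted p = 0.000862) came from the stressed level. HSP16.9A (1.83 ± 0.20) and HSP26.7 (1.44 ± 0.23) were also higher from the stressed level. HSP24.1, in contrast, fell in both, and was lower by -1.42 ± 0.16 from the control level. HSP101, the chaperone that dissolves protein aggregates, rose in both with an interaction of -0.09 that did not pass (adjusted p = 0.763).

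Of 20 heat stress transcription factors, 1 (5%) was higher in Nootripathu and 7 (35%) lower, against 21.2% and 11.8% of all genes. The median of the list was -0.38. HSFB2A read 9.44 and 9.59 in control IR20, 11.22 and 11.24 in stressed IR20, 10.59 and 10.62 in control Nootripathu and 9.90 and 10.03 in stressed Nootripathu. It rose by 1.72 in IR20 and fell by 0.64 in Nootripathu, an interaction of -2.36 ± 0.15 (SE, adjusted p = 5.07e-05) from both levels. HSFB2B (-2.24 ± 0.35, both levels) and HSFB2C (-1.81 ± 0.15, control level) belong with it to the class B factors, which lack the activation domain of class A. The higher member, HSFC1A, was 2.38 ± 0.33 from both levels.

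**Figure D3:**
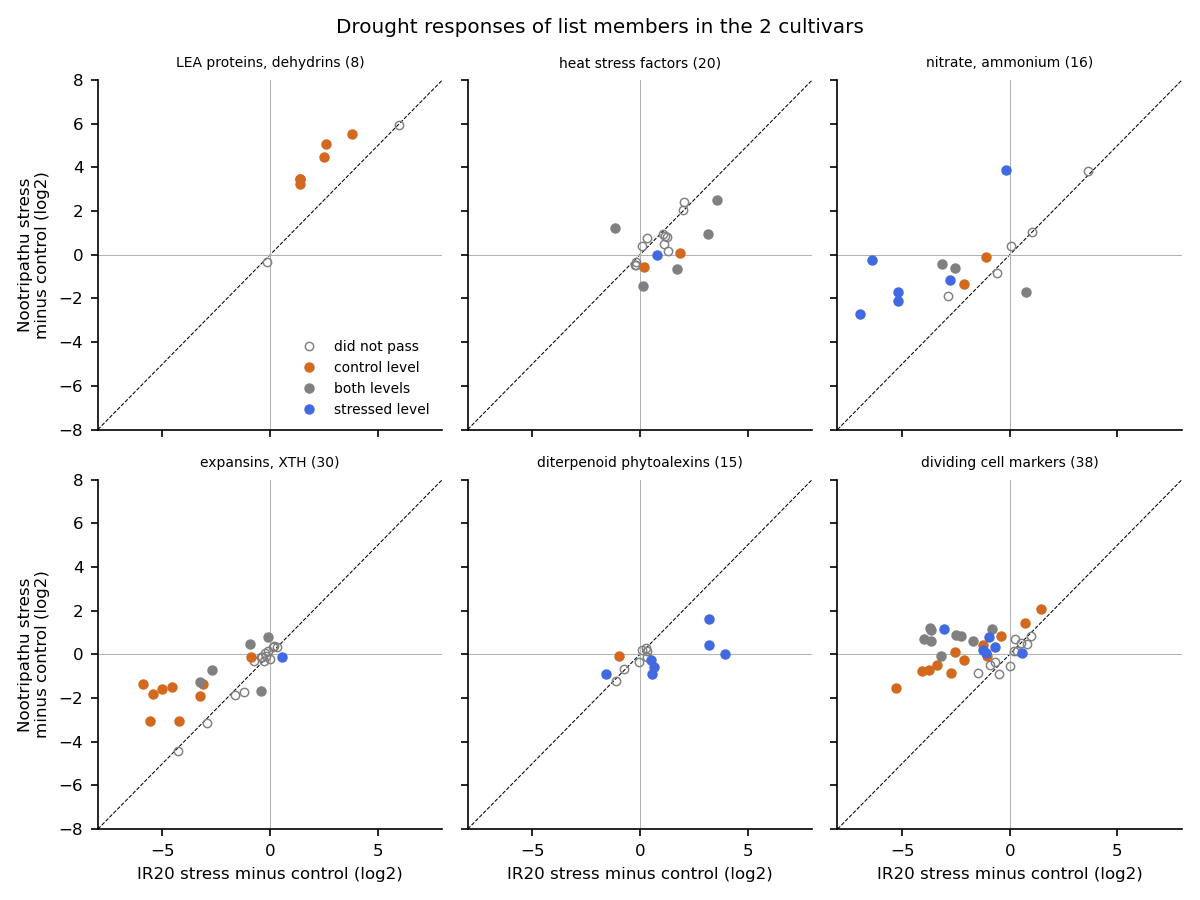
Drought response in IR20 (x axis, log2) against that in Nootripathu (y axis, log2) for the members of 6 gene lists, with the number of members in each title, colour for the origin of passing interactions and open circles for members that did not pass. The 6 passing LEA genes lay above the dashed line of equal responses in the upper right, the passing nitrate and ammonium genes lay above it except AMT2-3, and most passing heat stress factors and phytoalexin genes lay below it.

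Of 25 aquaporins, the channels that let water through membranes, 7 (28%) were higher in Nootripathu and 4 (16%) lower, against 21.2% and 11.8% of all genes, and 14 did not pass. TIP2-1, a channel of the vacuole membrane, read 12.96 and 13.01 in IR20 controls, 4.47 and 5.26 in IR20 under stress, 9.87 and 9.76 in Nootripathu controls and 4.82 and 5.23 in Nootripathu under stress. The 2 control groups were apart and both stressed groups were low and overlapped. TIP2-1 fell by 8.12 in IR20 and 4.79 in Nootripathu, and its interaction of 3.33 ± 0.34 (SE, adjusted p = 0.000497) came from the control level. TIP3-1, another vacuolar channel, rose to a shared level instead, by 4.78 in IR20 and 2.09 in Nootripathu, an interaction of -2.69 ± 0.16 from the control level. Both probe sets may match several transcripts. The plasma membrane channels PIP2-5 (1.81), PIP2-7 (1.85), PIP2-8 (1.37) and PIP1-1 (0.95) were higher in Nootripathu and PIP2-6 (-0.50) was lower. Of the 7 higher aquaporins, 5 came from the control level and 2 from both levels. Of the 4 lower, 1 came from the control level and 3 from the stressed level.

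Among silicon transporters, LSI1, the channel that takes silicic acid into the root, fell in both cultivars with an interaction of -0.26 that did not pass (adjusted p = 0.204), from control means over 14. LSI2, the transporter that passes silicon on towards the stele, read 13.60 and 13.51 on the IR20 control arrays, 6.26 and 6.85 on the IR20 stress arrays, 13.25 and 13.35 on the Nootripathu control arrays and 9.69 and 9.84 on the Nootripathu stress arrays. The control gap of -0.25 did not pass, and stressed Nootripathu was above stressed IR20. LSI2 fell by 7.00 in IR20 and fell by 3.54 in Nootripathu, an interaction of 3.46 ± 0.26 (SE, adjusted p = 0.000106) from the stressed level. NIP2-2, which is Lsi6, a silicon channel known for unloading in the shoot, was 3.55 ± 0.24 from the control level, with a probe set that may match several transcripts.

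Of 31 genes of iron and manganese uptake and of nicotianamine, 13 (41.9%) were higher in Nootripathu and 2 (6.45%) lower. The shares over all genes were 21.2% and 11.8%, and the median of the list was 0.03. Nramp1, a metal transporter of the NRAMP family, read 10.69 and 10.76 in control IR20, 7.25 and 7.20 in stressed IR20, 7.00 and 7.14 in control Nootripathu and 7.80 and 7.92 in stressed Nootripathu. IR20 controls were above the other 3 groups, which lay within about 1 of each other. Nramp1 fell by 3.50 in IR20 and rose by 0.79 in Nootripathu, an interaction of 4.29 ± 0.15 (SE, adjusted p = 7.41e-06) from the control level. NRAMP5, the main route of manganese into rice roots, fell in both and was 2.45 ± 0.22 from both levels. NAAT1 (2.78 ± 0.15), which makes the precursor of mugineic acid iron carriers, came from both levels and ended under 4 in stressed IR20. IRT1 (1.90 ± 0.18), a ferrous iron transporter, came from the control level. YSL16 (-2.04 ± 0.21) and YSL13 (-1.94 ± 0.14), of a family that carries metals bound to nicotianamine or its relatives, were lower in Nootripathu from both levels. NAS1, a nicotianamine synthase, fell in both, and its interaction of 1.04 did not pass (adjusted p = 0.0741).

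Of 35 phosphate, potassium and sulfate transporters, 7 (20%) were higher and 2 (5.71%) lower in Nootripathu, against 21.2% and 11.8% of all genes. Their median interaction was 0.01, or 0.09 without stressed IR20 replicate 2. PHO1-2, which loads phosphate into the xylem, read 12.73 and 12.79 in IR20 controls, 9.23 and 9.31 in IR20 under stress, 11.27 and 11.22 in Nootripathu controls and 11.23 and 11.17 in Nootripathu under stress. IR20 fell by 3.49 and the Nootripathu response of -0.04 did not pass, so that the interaction of 3.44 ± 0.14 (SE, adjusted p = 9.2e-06) came from both levels. PHO1-3 rose in Nootripathu by 2.18 and was 2.64 ± 0.17 from the stressed level. PT8, a phosphate transporter, and the potassium transporter HAK25 were lower in Nootripathu, by -1.50 ± 0.23 and -0.67 ± 0.13, both from the control level.

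**Figure D4:**
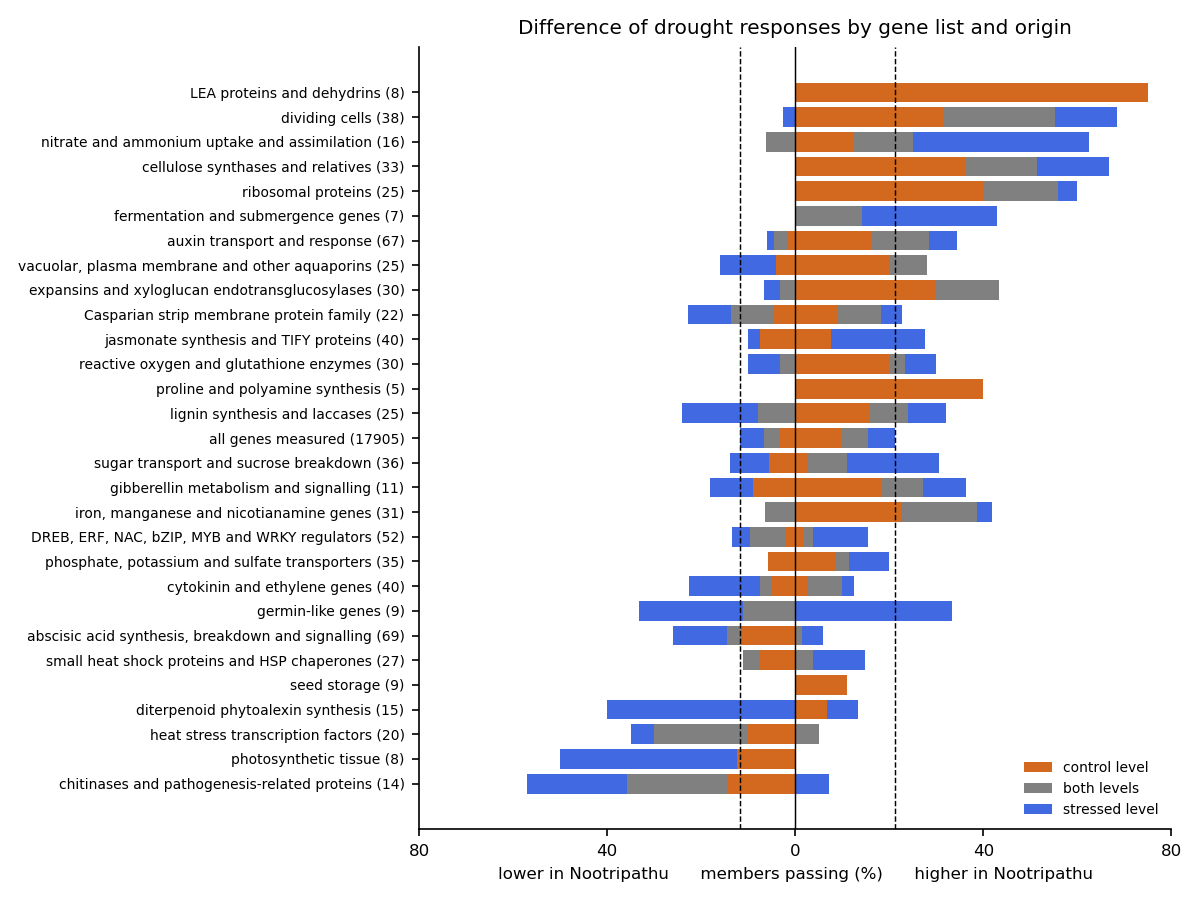
Share of the measured members of each gene list (number in brackets) whose drought response was lower (left) or higher (right) in Nootripathu, coloured by the origin of the difference, with lists of at least 5 members ordered by their median interaction. Dashed lines mark the shares over all genes, 11.8% lower and 21.2% higher.

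Of 67 auxin transport and response genes, 23 (34.3%) were higher in Nootripathu and 4 (5.97%) lower, against 21.2% and 11.8% of all genes. The median of the list was 0.44. ILL3, of a family that frees auxin from its amino acid conjugates, read 10.30 and 10.11 on the IR20 control arrays, 4.43 and 3.83 on the IR20 stress arrays, 5.16 and 5.45 on the Nootripathu control arrays and 4.19 and 4.25 on the Nootripathu stress arrays. Only the IR20 controls were high. ILL3 fell by 6.08 in IR20 and 1.09 in Nootripathu, an interaction of 4.99 ± 0.28 (SE, adjusted p = 3.43e-05) of which the control gap made up 98.2%. IAA12 (3.50 ± 0.25, both levels) and IAA31 (2.71 ± 0.16, control level) encode repressors of auxin response. PIN2, an auxin efflux carrier of the root tip, was higher by 2.39 from the control level. SAUR39, an auxin-induced gene known in rice to lower auxin levels, was lower by -1.94 ± 0.17 from both levels.

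In the list for abscisic acid, 18 of 69 (26.1%) were lower in Nootripathu and 4 (5.8%) higher, against 11.8% and 21.2% of all genes, although the median was -0.07. The list consists largely of protein phosphatases 2C, 55 of the 69. These were taken by family name, and which of them act in abscisic acid signalling was not tested. Without stressed IR20 replicate 2, 16 were lower and 13 higher, and with the spike-in scaling 4 were lower and 0 higher. ABA8OX2, an enzyme that starts the breakdown of abscisic acid, read 10.10 and 10.29 in control IR20, 12.75 and 12.72 in stressed IR20, 10.29 and 10.20 in control Nootripathu and 8.65 and 8.61 in stressed Nootripathu. The control arrays of the cultivars overlapped, and the stressed arrays lay on either side of them. ABA8OX2 rose by 2.54 in IR20 and fell by 1.62 in Nootripathu, an interaction of -4.16 ± 0.15 (SE, adjusted p = 8.15e-06) from the stressed level. ABA8OX1, its relative, rose in both and was higher in Nootripathu by 0.65 ± 0.15. The probe set of ABA8OX2 may match several transcripts.

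Of the 55 protein phosphatases 2C, 14 (25.5%) were lower and 1 higher, where 11.8% of all genes were lower and 21.2% higher. PP2C61 read 7.15 and 7.20 in IR20 controls, 8.31 and 8.40 in IR20 under stress, 9.57 and 9.49 in Nootripathu controls and 7.13 and 7.29 in Nootripathu under stress. The order of the cultivars reversed between control and stress. PP2C61 rose by 1.19 in IR20 and fell by 2.32 in Nootripathu, an interaction of -3.50 ± 0.15 (SE, adjusted p = 1.24e-05) from the control level. PP2C69 (-2.04 ± 0.20) also came from the control level, where Nootripathu already stood at the level IR20 reached under stress. PP2C30 (-0.87) and PP2C68 (-0.80) were lower from the stressed level. The SnRK2 kinase genes SAPK6 (-0.93) and SAPK1 (-0.61) were lower and SAPK3 (0.83) and SAPK7 (0.60) higher in Nootripathu. Of these kinase genes, 3 came from the stressed level and 1 from both levels. PYL5, an abscisic acid receptor gene, was lower by -0.90 from the control level.

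Of 52 DREB, ERF, NAC, bZIP, MYB and WRKY genes, 8 were higher and 7 lower in Nootripathu, which is 15.4% and 13.5% of the list against 21.2% and 11.8% of all genes. Without stressed IR20 replicate 2 the counts were 11 and 11. DREB2A, an activator of dehydration genes, rose by 2.81 in IR20 and 1.68 in Nootripathu, an interaction of -1.13 ± 0.19 (SE, adjusted p = 0.00499) from both levels. DREB1A, known in rice for the cold response, fell by 1.03 in IR20 and was 0.85 ± 0.15 from the stressed level. NAC5 (-0.14, adjusted p = 0.875), NAC6 (-0.41, adjusted p = 0.0674) and bZIP23 (-0.22, adjusted p = 0.265) did not pass. The 2 stressed IR20 arrays of NAC5 read 11.06 and 9.76, and without the lower, replicate 2, its interaction was -0.78 and passed.

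LOGL10, of the family that releases active cytokinin, fell by 1.28 in IR20 and rose by 2.49 in Nootripathu, an interaction of 3.78 ± 0.21 from the stressed level. CKX5, which degrades cytokinin, was lower by -1.36 ± 0.13 from the control level. Over 40 cytokinin and ethylene genes 5 (12.5%) were higher and 9 (22.5%) lower, against 21.2% and 11.8% of all genes. SD1, the gibberellin 20-oxidase whose loss gives semi-dwarf rice, read 5.28 and 5.53 on the IR20 control arrays, 5.71 and 5.49 on the IR20 stress arrays, 6.47 and 6.61 on the Nootripathu control arrays and 5.53 and 5.41 on the Nootripathu stress arrays. Nootripathu controls were above the other groups, and SD1 fell by 1.07 in Nootripathu, an interaction of -1.26 ± 0.19 (SE, adjusted p = 0.00279) from the control level. D3, an F-box protein of strigolactone signalling, rose by 2.60 in IR20 and was -2.43 ± 0.20 from both levels.

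Of 40 jasmonate synthesis and TIFY genes, 11 (27.5%) were higher and 4 (10%) lower in Nootripathu, near the 21.2% and 11.8% of all genes, with a median of 0.25. With the spike-in scaling 1 was higher and 3 lower, with a median of -0.03. Of 17 TIFY genes measured, 5 were higher, all from the stressed level and each by less than 1, such as TIFY11E at 0.83. TIFY5 was lower by -1.14 from the control level, a call lost in 5 of 16 alternative settings. The allene oxide synthases, which commit fatty acids to jasmonate, did not move together. AOS2 was 1.58 ± 0.17 from the stressed level, AOS4 1.11 ± 0.16 from the control level, and AOS3 -1.35 ± 0.15 from the stressed level.

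Of 15 diterpenoid phytoalexin genes, 2 (13.3%) were higher and 6 (40%) lower in Nootripathu, against 21.2% and 11.8% of all genes. All 6 came from the stressed level, and the median of the list was -0.28. CPS2, the cyclase that opens the route to the phytocassanes, read 7.51 and 7.78 in control IR20, 11.55 and 11.60 in stressed IR20, 6.71 and 5.91 in control Nootripathu and 6.36 and 6.32 in stressed Nootripathu. Stressed IR20 stood above the other 3 groups. CPS2 rose by 3.93 in IR20, the Nootripathu response of 0.03 did not pass, and the interaction was -3.90 ± 0.33 (SE, adjusted p = 0.000184). KSL10 (-2.81 ± 0.21) and KSL7 (-1.61 ± 0.19), synthases of later steps in phytoalexin branches, were lower in the same way, although control Nootripathu lay under 4 for KSL10. CYP99A2 (0.70 ± 0.18) and CYP99A3 (0.89 ± 0.13), oxidases of the momilactone branch, were higher, 1 from the control level and 1 from the stressed level. The call of CYP99A2 was lost in 8 of 17 alternative settings.

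Among 14 chitinases and pathogenesis-related genes, 1 (7.14%) was higher and 8 (57.1%) lower in Nootripathu, against 21.2% and 11.8% of all genes. The median of the list was -1.07. CHT9 read 5.78 and 5.83 in IR20 controls, 10.82 and 10.61 in IR20 under stress, 7.35 and 7.47 in Nootripathu controls and 8.68 and 8.98 in Nootripathu under stress. It rose in both cultivars, by 4.92 in IR20 and by 1.42 in Nootripathu from a higher start, giving an interaction of -3.49 ± 0.19 (SE, adjusted p = 3.24e-05) from both levels. PBZ1, a defence protein induced by probenazole, rose by 1.45 in IR20 and fell by 0.94 in Nootripathu, an interaction of -2.40 ± 0.19 (SE, adjusted p = 0.000125) from the stressed level. Of 9 germin-like genes 3 (33.3%) were higher and 3 (33.3%) lower, against 21.2% and 11.8% of all genes. The higher ones, GER3, GLP2 and GER4, lost their call in 9, 8 and 4 of 17 alternative settings. With the spike-in scaling 0 were higher and 3 lower. GER1, of this family of cell wall glycoproteins, read 11.04 and 11.11 on the IR20 control arrays, 8.91 and 9.10 on the IR20 stress arrays, 11.42 and 11.41 on the Nootripathu control arrays and 5.99 and 6.50 on the Nootripathu stress arrays. The control arrays were close and stressed Nootripathu was lowest, with an interaction of -3.10 ± 0.24 (SE, adjusted p = 0.000116) from the stressed level.

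A further 3 genes outside the lists were among the largest negative interactions with a name. PDR5, an exporter of the ABCG class, read 6.81 and 6.89 in control IR20, 10.58 and 10.56 in stressed IR20, 6.29 and 6.12 in control Nootripathu and 6.12 and 6.09 in stressed Nootripathu. It rose in IR20 by 3.72 while the Nootripathu response of -0.10 did not pass, an interaction of -3.82 ± 0.15 (SE, adjusted p = 8.67e-06) from the stressed level. PSK4, a precursor of the growth peptide phytosulfokine, rose in IR20 by 2.37, fell in Nootripathu by 0.86 and was -3.23 ± 0.26 from the stressed level. IRL2, a leucine-rich repeat gene, was high in Nootripathu controls and fell there by 3.04, an interaction of -3.47 ± 0.15 from the control level.

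Of 36 genes of sugar transport and sucrose breakdown, 11 (30.6%) were higher and 5 (13.9%) lower in Nootripathu. The shares over all genes were 21.2% and 11.8%. SWEET12, of the family of sugar exporters, read 7.42 and 7.87 in IR20 controls, 8.96 and 9.36 in IR20 under stress, 8.25 and 8.48 in Nootripathu controls and 13.34 and 13.32 in Nootripathu under stress. Stressed Nootripathu stood 4.17 above stressed IR20, and the control groups were 0.72 apart. SWEET12 rose by 1.52 in IR20 and by 4.96 in Nootripathu, an interaction of 3.44 ± 0.26 (SE, adjusted p = 0.000122) from the stressed level. CIN2, a wall invertase that splits sucrose outside the cell, fell in both and was 3.70 ± 0.22 from the stressed level. SWEET11 (-2.25 ± 0.37), with a mean under 4 in IR20 controls, and the invertase gene CIN7 (-1.37 ± 0.24) were lower from the control level.

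Of 7 fermentation and submergence genes, 3 (42.9%) were higher in Nootripathu and 0 lower, against 21.2% and 11.8% of all genes. The median of the list was 0.47. PDC1, a pyruvate decarboxylase that directs pyruvate to ethanol, read 7.06 and 7.32 on the IR20 control arrays, 6.09 and 6.07 on the IR20 stress arrays, 7.70 and 7.44 on the Nootripathu control arrays and 9.60 and 9.52 on the Nootripathu stress arrays. It fell by 1.11 in IR20 and rose by 1.99 in Nootripathu, an interaction of 3.10 ± 0.18 (SE, adjusted p = 4.5e-05) from the stressed level. Adh2, the next enzyme, fell by 2.20 in IR20 and was 1.93 ± 0.16 from the stressed level, and PDC2 was 1.22 ± 0.14 from both levels.

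For compatible solutes, P5CS1, the first enzyme of proline synthesis, rose in both cultivars and its interaction of -0.43 did not pass (adjusted p = 0.053), although it passed in 5 of 17 alternative settings. P5CS2 rose by 3.47 in IR20 and 4.13 in Nootripathu and passed with 0.66 ± 0.14 from the control level. ADC2, an arginine decarboxylase of polyamine synthesis, was high in IR20 controls alone and had an interaction of 3.34 ± 0.16 from the control level. In the list for reactive oxygen and glutathione, 9 of 30 genes (30%) were higher and 3 (10%) lower, against 21.2% and 11.8% of all genes. The 9 include ALN, which is an enzyme of purine breakdown, and PRX74, whose difference has no known size. The lower ones included RBOHB, an NADPH oxidase that makes superoxide, which rose by 1.49 in IR20 and was -1.64 ± 0.14 from both levels.

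Markers of other tissues were compared in the same arrays. Of 8 genes of photosynthetic tissue, 0 were higher and 4 (50%) lower in Nootripathu, against 21.2% and 11.8% of all genes. The median interaction of these 8 genes was -0.59. Their mean signal ran from 6.03 to 6.12 in IR20 controls, from 6.30 to 6.50 in IR20 stress, was 6.05 in both Nootripathu controls and was 5.70 in both Nootripathu stress arrays. RBCS1, a small subunit of Rubisco, had group means of 3.05, 3.11, 3.15 and 3.13, near the lowest signals of the arrays, and the 4 means of RBCS lay between 7.11 and 7.54. PSAG rose in both cultivars and was -1.37 ± 0.16 from the stressed level, and petC fell in Nootripathu and was -1.65 ± 0.22 from the stressed level. LP02, an oxygen-evolving complex gene outside the list, was -2.75 ± 0.18 from the control level.

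Among 22 genes of the Casparian strip membrane protein family, whose founding members mark the endodermis, 5 (22.7%) were higher and 5 (22.7%) lower. Over all genes 21.2% were higher and 11.8% lower. Seed storage genes had 1 of 9 passing (11.1%), RAG2, which was higher by 1.18 ± 0.29 from the control level. Another of its probe sets passed in the other direction, and the mean signal of the 9 was 4.59 to 5.21 on all arrays. The 1 root hair gene measured did not pass. The part of cell types in the differences above was not tested.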

How the data were processed

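Total RNA from roots (2 ug per sample) was hybridised to Affymetrix rice genome arrays. The deposited values are log2 signals that the authors made with RMA in Affymetrix Expression Console 3.0, per the submitters' processing notes. RMA corrects background and forces the arrays to 1 distribution, so shifts shared by most transcripts are removed, and 2 arrays per group limit the precision. Raw scans were not used here.

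Groups came from the labels. A mean per group was fitted over all 8 arrays with limma 3.58.1 in R 4.3.3 (4 residual and 3.88 prior degrees of freedom, prior SD 0.129), with Benjamini-Hochberg adjustment over 57258 probe sets and a threshold of 0.05. Standard errors therefore rest on 1 spread shared by the 4 groups. With 2 arrays in each of 2 groups the smallest exact permutation p (two-sided) would be 0.333, so none was computed. The fit was run on simulated data with planted differences, and the smaller of these were rarely called. A gene that did not pass may therefore still differ between the cultivars.

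Platform annotation was updated through RefSeq gene identifiers. It gave 1 gene to 22436 probe sets and several to 95. They covered 17905 genes, 2458 with a name, many of them synonyms. The probe set of highest mean signal stood for its gene. Positions and sequences were not used here.

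The contrast, the 30 gene lists and the genes to be named were chosen with earlier results of these data known, and some list members were dropped after the annotation was seen. Named were, among genes with a name whose 4 array differences did not overlap between cultivars, the 12 largest passing interactions in each direction, the 6 largest for each direction and origin, up to 3 for each direction and list, 18 fixed genes, and the 4 largest in each direction over all genes. That gave 165 genes, of which 157 passed. Further members of a list are named where they complete a gene family or a pathway step.

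Alternatives were a replicate block, trended and robust priors, array weights, leaving out dim or multi-transcript probe sets, other scalings, other rules of origin and leaving out each array.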

Additional observations from a re-analysis of the deposited data

Results flagged for a closer look

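Stressed IR20 replicate 2 had a 3′ minus 5′ spike-in signal of 5.32, far from the other 7 arrays. Its gap to the nearest array was 0.845 of the whole range, past the critical value for 8 arrays, a limit that chance passes in about 1 of 20 groups. Results with and without this array are given above.

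Among probe sets that passed the interaction, 1217 had passing drought responses of opposite sign in the cultivars. The interaction is the test of that difference. Of the genes singled out by the naming rule, 16 fell in IR20 and rose in Nootripathu, and 21 did the reverse. In all 37 the control and stressed arrays did not overlap in either cultivar. These genes were picked for passing responses in both cultivars, which favours such separation, so it is no further support. The 16 were LOC4337229 (7.55), ALN (7.36), LOC4339187 (6.99), LOC4332321 (6.73), RPA2A (4.90), MCM3 (4.80), BC1 (4.72), Nramp1 (4.29), MCM2 (4.27), MCM5 (4.22), LOGL10 (3.78), PDC1 (3.10), PHO1-3 (2.64), HSFC1A (2.38), LOGL9 (2.02) and RPS15 (0.86). The 21 were MDHAR2 (-0.86), ERS2 (-1.03), GER6 (-1.21), AOS3 (-1.35), bZIP41 (-1.87), YSL16 (-2.04), SWEET11 (-2.25), GDH2 (-2.32), HSFB2A (-2.36), PK3 (-2.37), PBZ1 (-2.40), AMT2-3 (-2.46), LAC19 (-2.57), PSK4 (-3.23), IRL2 (-3.47), PP2C61 (-3.50), ABA8OX2 (-4.16), LOC4346629 (-5.10), LOC4332162 (-5.11), LOC4344636 (-5.21) and LOC4331559 (-5.61).

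The 18S ribosomal RNA control probe sets, which entered no comparison, had a mean signal of 12.2 in Nootripathu controls against 8.34 in IR20 controls. Whether ribosomal RNA was carried into the labelling to different extents was not tested.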

How the results depend on the processing

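Scaling to the 3′ spike-ins gave the lowest total, 3228 passing probe sets, 1641 higher and 1587 lower in Nootripathu, and the same 3228 were at least 2-fold, 1641 of them higher. The origin was the control level for 1234, the stressed level for 1077 and both levels for 917. Opposite responses passed at 256, falls in IR20 at 1468 of those higher, and 166 list members passed. The differences in spike-in signal between replicates enter every probe set there, and 40 of the 157 passing named genes no longer passed.

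Leaving out 1 array gave 6509 to 14153 passing probe sets, 3951 to 7622 higher and 2558 to 6531 lower. At least 2-fold were 4665 to 5784, 3028 to 3930 higher and 1543 to 2016 lower. The origin was the control level for 2479 to 4356, the stressed level for 2122 to 5915 and both for 1908 to 4427. Opposite responses numbered 669 to 1718, falls in IR20 among those higher 2840 to 5150, and list members passing 245 to 380. The total moved by over 1.5 times without Nootripathu control replicate 1 (6746) or 2 (6509), IR20 control replicate 2 (6948), or Nootripathu stress replicate 1 (7362) or 2 (7241). These fits have fewer samples. HSP101 (-0.09) ranged from -0.27 without IR20 stress replicate 2 to 0.085 without replicate 1, and NAC5 (-0.14) from -0.78 to 0.51 without the same arrays, passing at the former. The cause of the reversals was not tested.

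With the replicate number as a block, 11251 probe sets passed. Deviations of arrays with the same number correlated between -0.01 and 0.21, so the numbers were not taken to pair the samples. The block, the priors, array weights, median centring, renewed quantile normalisation, the filters on dim and multi-transcript probe sets and the other rules of origin left every count above within 1.5 times. Of the 157 passing named genes, 115 kept sign and call in every setting that held their probe set, which was 17 settings for 130 of the 157 and 15 or 16 for the other 27. Calls were lost in 9 settings for GER3 and NIP1-1, 8 for ORC2, CYP99A2, RPL3 and GLP2, and 7 for LAX1 and HSP26.2. They were lost in 6 for ABA8OX1 and RAG2, and in 5 for P5CS2, EXPB10, TIP2-2, TIFY5, GSTZ3 and BZIP06. P5CS1 passed in 5. Signals near 3 or over 14 limit what can be seen at either end.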

Other observations

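A few genes outside the lists add to the account of stressed IR20. PEX11-1, which acts in the division of peroxisomes, read 8.58 and 8.63 in control IR20, 11.95 and 12.02 in stressed IR20, 10.03 and 10.09 in control Nootripathu and 10.89 and 10.84 in stressed Nootripathu. It rose by 3.38 in IR20 and 0.80 in Nootripathu, an interaction of -2.58 ± 0.13 (SE, adjusted p = 2.71e-05) from both levels. OC-IV, an inhibitor of cysteine proteases, rose by 2.11 in IR20 to the level that Nootripathu held in both conditions, and was -2.34 ± 0.19 from the control level. PK3, a calcium-regulated kinase of the CIPK family, rose by 0.89 in IR20 and fell by 1.48 in Nootripathu, with -2.37 ± 0.14 from both levels.

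The reverse course was seen in LTP110-A, a lipid transfer protein gene. Its signals were 9.84 and 9.48 in IR20 controls, 4.25 and 4.22 in IR20 under stress, 5.49 and 5.56 in Nootripathu controls and 4.43 and 4.56 in Nootripathu under stress. IR20 controls alone were high, and the interaction of 4.39 ± 0.19 (SE, adjusted p = 1.36e-05) came from the control level. Melibiase, named for an alpha-galactosidase, was highest in Nootripathu controls and lowest in stressed Nootripathu, with -3.01 ± 0.17 from both levels.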
